A study of Gallus gallus with 12 samples.

Results

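The axon guidance genes of the chick gut wall were followed here as a set of 53 genes among the 17138 genes of the count table. They were chosen by gene symbol alone: all semaphorins, plexins, Eph receptors, ephrins, Slits and Robos, together with NRP1, NRP2, NTN1, NTN4, the UNC5 receptors and ISLR2. The 5 SLITRK genes share only the first letters of their symbols with the Slits and were left out. Expression had been measured with Light-seq, in which RNA is copied to barcoded cDNA inside regions outlined on a tissue section. All samples came from the intestinal mesoderm of embryonic day 14 chicks (Gallus gallus). The 3 groups of 4 samples were hindgut with RCAS-mGFP, midgut with RCAS-Hoxd13 and midgut with RCAS-mGFP, called hindgut, Hoxd13 midgut and midgut below. RCAS is an avian retrovirus that replicates in chick cells, and mGFP is a membrane-bound fluorescent protein used as the control insert. All groups therefore carried a retrovirus, which the labels describe as electroporated in ovo at Hamburger-Hamilton stage 17 into splanchnic lateral plate mesoderm at the level of the midgut, for the hindgut samples too. The share of cells that carried the virus was not given in the labels. Each sample gave counts for 3 layers, namely mesenchyme under the epithelium, an inner longitudinal muscle layer and inner circumferential muscle.

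Guidance ligands steer growing axons and migrating cells by attracting or repelling them. Slits are secreted repellents that bind Robo receptors. Secreted semaphorins bind neuropilins, which signal through plexins, while most membrane-bound semaphorins bind plexins directly. Ephrins are tethered to the cell surface and bind Eph receptor tyrosine kinases on neighbouring cells, and netrins bind the UNC5 receptors among others. In the gut, semaphorins and netrins are known for guiding the nerve fibres and neural crest cells that build the enteric nervous system, and many of these families also act in blood vessels and in mesenchyme.

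The subepithelial mesenchyme carried most of the counts, with totals of 210803 to 903222 per sample. The circumferential muscle had 19920 to 112252 counts and the longitudinal muscle 11233 to 49535. In the mesenchyme, HOXD13 itself had 4, 2, 1 and 8 counts in hindgut and 213, 202, 155 and 238 counts in the Hoxd13 midgut, against 0 in each of the 4 midgut samples. The 3 measured W-linked genes, carried only by female birds, summed to 22 to 71 counts in hindgut, 45 to 66 in the Hoxd13 midgut and 0 to 1 in midgut. As CPM (a counts-per-million value, here from the total count) they were at 37.6 in hindgut replicate 1 and 104 to 156 in the other hindgut samples, 122 to 162 in the Hoxd13 midgut and 0 to 3.26 in midgut. A sex-linked difference and the group can therefore not be told apart in either comparison with midgut. Hindgut replicate 1 stood apart from the other hindgut samples. In a chi-square test of counts over genes, its chi-square per degree of freedom was 4.47 to 7.06 against each of them, and 1.55 to 3.84 among those 3. That sample also had the most counts, 903222 against 210803 to 454072 in the other hindgut samples. The chi-square measure rises with depth, so by itself it does not set the sample apart. The 11 epithelial markers of hindgut replicate 1 summed to 3334 CPM of the total count, against 860 to 1064 in the other hindgut samples. They summed to 2182 to 2519 in the Hoxd13 midgut and 2289 to 3378 in midgut. Hindgut replicate 1 was singled out after its counts were seen, so p-values from fits without it do not allow for that choice. Calls of guidance genes in the mesenchyme comparisons with hindgut are given with and without it. Most other hindgut values are given only with all samples. Nothing in the labels says that replicates came from separate embryos, so p-values measure only the spread between these samples.

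Of the 53 guidance genes, 33 had enough counts in the mesenchyme to be tested, among 4176 genes. They were SLIT1, SLIT2 and SLIT3, ROBO1 and ROBO2, 5 of 7 secreted and 6 of 11 membrane-bound semaphorins, both neuropilins, 6 of 7 plexins, 2 of 4 ephrins, 4 of 10 Eph receptors, UNC5B and UNC5C, and ISLR2. The other 20 had 3 to 87 counts over all 12 mesenchyme samples. Among them were the netrins, with 6 counts for NTN1 and 26 for NTN4, the receptors UNC5A (72) and UNC5D (3) and the plexin PLXNC1 (74). The ephrins EFNA2 (71) and EFNB2 (27) and the Eph receptors EPHA1 (71), EPHA2 (87), EPHA4 (63), EPHA5 (48), EPHA7 (41) and EPHB6 (71) were below the filter too. So were the semaphorins SEMA3E (22), SEMA3G (44), SEMA4D (74), SEMA4G (80), SEMA6B (29), SEMA6C (5) and SEMA7A (40). The filter asks for about 28.0 CPM of the total count in at least 4 samples. EPHA3 reached that level in 3 hindgut, 2 Hoxd13 and 0 midgut samples, so it was tested only because of the groups where it is high. The other tested genes reached it in at least 1 sample of every group, though not evenly. SEMA3A did so in 4 hindgut, 4 Hoxd13 and 1 midgut samples, and EFNA5 in 2, 1 and 4. The filter can therefore favour positive values of SEMA3A and negative values of EFNA5 against midgut. No gene of the set was at 0 in all 12 mesenchyme samples. A count of 0 in a single sample allowed a level of up to 2.75 to 16.6 CPM in the mesenchyme, so changes in the netrins were not detectable at this depth. Here and below, CPM are counts-per-million values after scaling the libraries with TMM factors, which correct totals for composition, except where total counts are named. Levels of different genes were not compared, because the values are not per length.

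Forced Hoxd13 in the midgut went with lower SLIT3 and ISLR2 in the subepithelial mesenchyme. Both passed the test against midgut, and no guidance gene was called higher. Adjusted p-values come from the quasi-likelihood test of edgeR, corrected over all genes tested by the Benjamini-Hochberg method, with a threshold of 0.05, and each error of a log2 change is a standard error. The background was 56 of 4176 genes called lower (1.34%), 55 called higher (1.32%) and 111 in either direction (2.66%). The guidance genes had 2 of 33 called lower and 0 higher. The median log2 change of the 33 genes was -0.15, with 11 positive and 22 negative, beside 0.01 over all genes tested.

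SLIT3, a secreted Robo ligand, had 121, 120, 112 and 106 CPM in the Hoxd13 midgut, against 216, 226, 215 and 229 CPM in midgut. All 4 Hoxd13 samples lay far below all 4 midgut samples. The mean was 115 ± 7.16 CPM in the Hoxd13 midgut and 222 ± 6.81 CPM in midgut (SD, n = 4 each). These values rest on 38, 37, 31 and 39 counts in the Hoxd13 midgut and 90, 66, 62 and 84 in midgut. Counting error alone is wider than these SDs at such counts, so they are not read as the precision of the replicates. On the log2 scale SLIT3 fell by 0.95 ± 0.16 (adjusted p = 0.0012). The call held whichever of the 12 samples was left out, with log2 changes of -0.97 to -0.90. In tissue regions, fewer cells of a type and less RNA per cell cannot be told apart, here and in all results that follow.

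ISLR2, a transmembrane protein with leucine-rich repeats that is needed for normal axon growth and guidance in mouse, had 160, 146, 229 and 128 CPM in the Hoxd13 midgut, against 332, 287, 292 and 259 CPM in midgut. The groups did not overlap, but Hoxd13 replicate 3 came close to the lowest midgut sample. The mean was 165 ± 44.1 CPM in the Hoxd13 midgut and 292 ± 30.0 CPM in midgut (SD, n = 4 each). ISLR2 fell by 0.84 ± 0.17 (adjusted p = 0.0071). Without Hoxd13 replicate 4 the change was -0.72 and no longer passed (adjusted p = 0.055), and it passed in the other 11 of 12 fits that left out a sample.

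**Figure D1:**
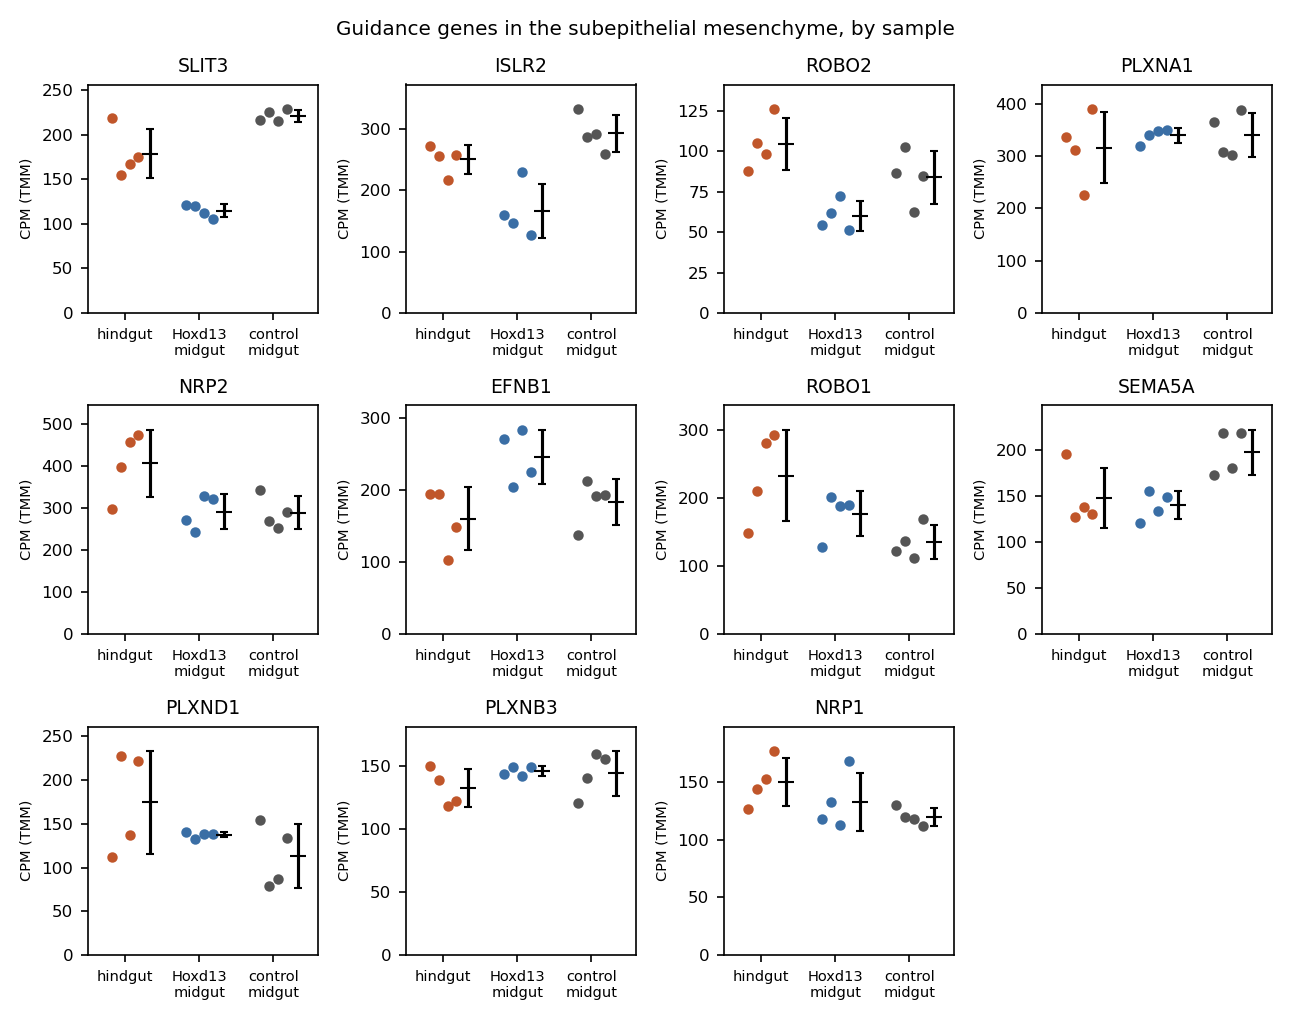
CPM after TMM scaling (vertical axes, linear, from 0) of the 11 guidance genes described in full in the subepithelial mesenchyme. Points are samples in hindgut, Hoxd13 midgut and control midgut, and bars are the mean with its SD (n = 4). SLIT3 is at 106 to 121 CPM in the Hoxd13 midgut and at 215 to 229 CPM in control midgut, with no overlap.

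SEMA5A, a membrane-bound semaphorin with thrombospondin repeats, had 121, 156, 134 and 149 CPM in the Hoxd13 midgut, against 173, 219, 180.5 and 218 CPM in midgut. Those groups did not overlap either, yet its log2 change of -0.49 ± 0.18 did not pass (adjusted p = 0.14). It passed in 1 of the 12 fits that left out a sample, the fit without hindgut replicate 1 (adjusted p = 0.031), in which 3 of 33 guidance genes and 7.52% of all genes were called. SEMA5A also passed in the fit of only the groups compared, which held no hindgut samples. SLIT3, ISLR2 and SEMA5A were the only members of the 33 whose Hoxd13 and midgut samples did not overlap, all of them lower, with a background of 6.9% of all genes lower and 6.59% higher without overlap (13.5% in all). At an unadjusted p under 0.05, 8 of the 33 were lower and 2 higher, beside a background of 8.5% lower and 8.31% higher (16.8% in all). The 2 higher genes include EPHA3, which the filter favours.

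None of the other ligands passed against midgut, and their log2 changes had both signs. SLIT2 had 140, 110, 90.7 and 100.5 CPM in the Hoxd13 midgut, against 168, 178, 139 and 128 CPM in midgut, with a log2 change of -0.47 ± 0.18 (adjusted p = 0.18). SLIT1 was at -0.15 ± 0.24. All 6 tested membrane-bound semaphorins had negative log2 changes, with a median of -0.39 and none past the threshold: SEMA6A -0.75, SEMA5A -0.49, SEMA5B -0.43, SEMA6D -0.34, SEMA4C -0.19 and SEMA4B -0.12. SEMA6A and the ephrin EFNA5 (-0.75) lie on the Z chromosome, and for them the dose of that chromosome and the group cannot be told apart. The secreted semaphorins were mixed, with SEMA3D at -0.41, SEMA3B at -0.20 and SEMA3C at -0.07, and SEMA3F at 0.33 and SEMA3A at 0.67.

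Among the receptors, none passed against midgut. ROBO2 had 54.2, 61.7, 72.6 and 51.6 CPM in the Hoxd13 midgut, against 86.6, 103, 62.5 and 84.5 CPM in midgut, with a log2 change of -0.50 ± 0.21 (adjusted p = 0.23). Its paralogue ROBO1 had 128, 201, 189 and 190.0 CPM in the Hoxd13 midgut, against 123, 137, 111 and 169 CPM in midgut, with a log2 change of 0.39 ± 0.22 (adjusted p = 0.37). The log2 changes of the 2 Robo receptors thus had opposite signs, and both groups overlapped in each. NRP2, a neuropilin that serves secreted semaphorins and vascular growth factors, had 271, 243, 330 and 323 CPM in the Hoxd13 midgut, and NRP1 had 118, 133, 112 and 168 CPM there. Their log2 changes were 0.00 ± 0.16 and 0.16 ± 0.18, and both were negative with total counts as the scale (-0.20 and -0.05). The plexins ranged from -0.42 for PLXNA4, through PLXNA2 (-0.22), PLXNA1 (-0.01), PLXNB3 (0.03) and PLXNB2 (0.07), to 0.25 for PLXND1. With total counts as the scale, PLXNB3 and PLXNB2 were at -0.19 and -0.15. The netrin receptors UNC5B and UNC5C were at -0.15 and -0.26.

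EPHA3, a receptor for class A ephrins, had a log2 change of 1.25 ± 0.46 and did not pass (adjusted p = 0.16). Its entry through the filter favours a positive value here and against midgut in general. It rested on 12, 5, 16 and 9 counts in the Hoxd13 midgut, against 7, 5, 1 and 6 counts in midgut, and the groups overlapped. Its relatives EPHB1, EPHB2 and EPHB3 were at 0.36, -0.12 and -0.15. EFNB1, a transmembrane ephrin, had 271, 204, 283 and 225 CPM in the Hoxd13 midgut, against 137, 212, 191 and 194 CPM in midgut, a log2 change of 0.43 ± 0.19 (adjusted p = 0.23).

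**Figure D2:**
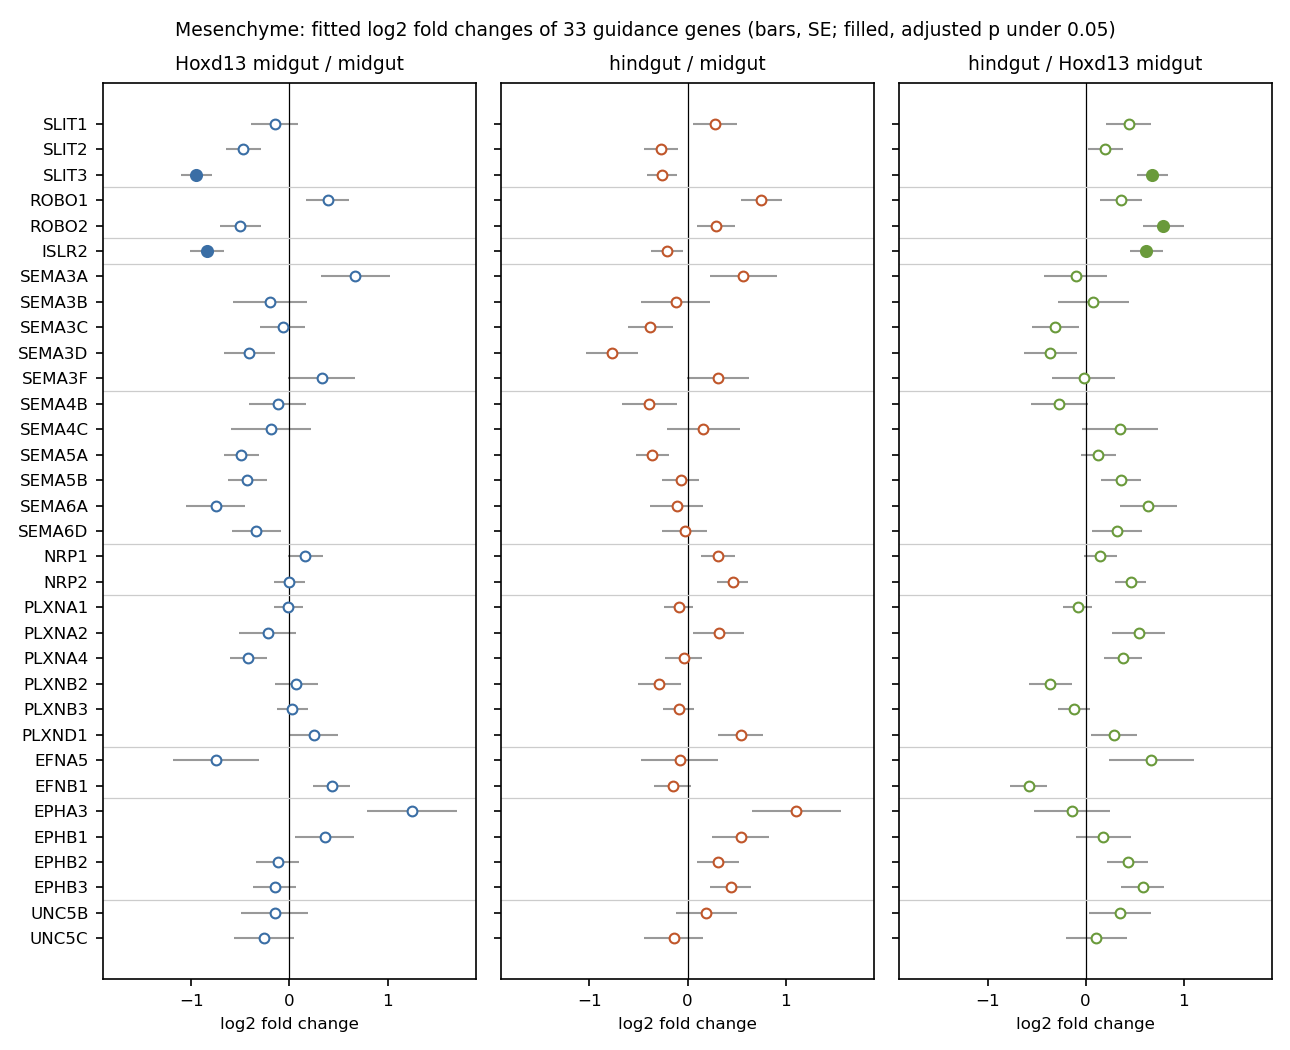
Fitted log2 changes (horizontal axes) of the 33 tested guidance genes in the subepithelial mesenchyme for Hoxd13 midgut over midgut, hindgut over midgut and hindgut over Hoxd13 midgut. Genes run down the page by family, bars are standard errors, and filled symbols passed the adjusted p threshold. SLIT3 and ISLR2 are filled in the left panel at -0.95 and -0.84, none is filled in the middle panel, and SLIT3, ROBO2 and ISLR2 are filled in the right panel.

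Markers of other cell types were set beside these values. Their sums are on total counts, not on the TMM scale of the genes. On total counts the median log2 change of all genes tested was itself -0.20 in the Hoxd13 midgut against midgut. Most gaps between marker sums were not measured on the TMM scale. The 10 fibroblast and mesenchyme markers summed to 10260 to 13250 CPM of the total count in the Hoxd13 midgut, below the 14030 to 16250 CPM in midgut, and 1 of the 9 tested was called lower. On the TMM scale the groups overlapped. Hoxd13 replicate 1 had 4877 such counts in a scaled library of 313559, and midgut replicate 3 had 4260 in 288158. Most of these counts came from COL1A1, COL1A2 and COL3A1. At an unadjusted p under 0.05 by edgeR, 1 of the 9 was higher and 4 lower, beside 8.31% and 8.5% of all genes. The 11 smooth muscle markers summed to 5097 to 6019 CPM in the Hoxd13 midgut and 3977 to 6267 CPM in midgut, with 2 of 11 called higher. The 14 markers of enteric neurons and glia summed to 411 to 573 CPM in the Hoxd13 midgut and 548 to 606 CPM in midgut, with 0 of 7 tested called. The 10 endothelial markers summed to 138 to 213 CPM in the Hoxd13 midgut and 156 to 180 CPM in midgut, again with 0 of 2 tested called. The 11 epithelial markers, with 0 of 9 tested called, summed to 2182 to 2519 CPM in the Hoxd13 midgut and 2289 to 3378 CPM in midgut. The 3 erythroid markers summed to 113 to 159 CPM in the Hoxd13 midgut and 176 to 333 CPM in midgut, with 0 of 2 tested called. No list was at 0, but FABP1 and HBBR were among the markers with 0 counts in the Hoxd13 midgut, and the part of any of these cell types in the lower SLIT3 and ISLR2 was not tested.

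In hindgut against midgut, no guidance gene passed with all samples by the edgeR test used above. ROBO1 and SEMA3D did pass without the low-count filter, and with the replicate number as a block. The calls were 0 of 33 by edgeR, and by DESeq2 2 of the 14 to which it gave an adjusted p (ROBO1 and SEMA3D). By edgeR 6 of 33 had an unadjusted p under 0.05, of which 4 were higher and 2 lower. The 4 higher genes include EPHA3, which the filter favours. The background by edgeR was 62 of 4176 genes (1.48%), with 1.32% higher and 0.168% lower, and by DESeq2 120 of the 838 genes it adjusted (14.3%). An unadjusted p under 0.05 was found for 13.9% of all genes, 8.12% higher and 5.82% lower. The 33 genes had a median log2 change of -0.04, with 15 positive and 18 negative, beside 0.00 over all genes. Of the Eph receptors, EPHA3 was at 1.11, EPHB1 at 0.54, EPHB3 at 0.44 and EPHB2 at 0.31, none past the threshold.

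ROBO1, a Slit receptor, had 148, 211, 280 and 292 CPM in hindgut, against 123, 137, 111 and 169 CPM in midgut. Hindgut replicates 2 to 4 were above all midgut samples, whereas hindgut replicate 1 lay within the midgut range. The mean was 233 ± 66.9 CPM in hindgut and 135 ± 25.1 CPM in midgut (SD, n = 4 each), and the log2 change of 0.75 ± 0.21 did not pass (adjusted p = 0.076). SEMA3D, a secreted semaphorin, had 167, 77.6, 49.2 and 64.2 CPM in hindgut, against 156, 188, 194 and 164 CPM in midgut. Again only hindgut replicate 1 lay within the midgut range, and the other 3 hindgut samples were far below it. Its log2 change was -0.77 ± 0.26 (adjusted p = 0.14).

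NRP2 had 298, 399, 457 and 474 CPM in hindgut, against 344, 270, 253 and 292 CPM in midgut. PLXND1, a plexin best known from blood vessels, had 112, 227, 138 and 222 CPM in hindgut, 140, 133, 138 and 138 CPM in Hoxd13 midgut samples and 154, 78.6, 86.8 and 134 CPM in midgut. In both genes hindgut replicate 1 was the lowest hindgut sample and lay inside the midgut range, as did hindgut replicate 3 for PLXND1. The log2 changes were 0.46 ± 0.16 for NRP2 (adjusted p = 0.16) and 0.54 ± 0.23 for PLXND1 (adjusted p = 0.27). EPHA3 had 21.1, 38.8, 44.3 and 33.2 CPM in hindgut, against 16.8, 17.1, 3.47 and 16.4 CPM in midgut. Among the 33 genes only its hindgut and midgut samples did not overlap, and the background was 2.97% of all genes, 1.92% higher and 1.05% lower. It did not pass (adjusted p = 0.25), and nothing is read from the gap, since the filter let it in through the higher groups.

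Without hindgut replicate 1, 8 of the 33 guidance genes passed in hindgut against midgut. The background was then 825 of 4214 genes, 19.6% (10.1% higher and 9.52% lower). In both directions together the share of guidance genes called was close to that of all genes, though most of those called were higher. The genes called higher were ROBO1 (log2 change 0.97, adjusted p = 2.1e-05), NRP2 (0.61, 0.00051), PLXND1 (0.76, 0.0032), EPHB3 (0.61, 0.021), EPHA3 (1.39, 0.026) and EPHB1 (0.81, 0.043). The genes called lower were SEMA3D (-1.46, 9.3e-07) and SEMA5A (-0.59, 0.011). EPHA3 is subject to the filter as above. All 8 kept the sign they had with all samples. Hindgut replicate 1 was singled out after its counts were seen. It lay inside the midgut range for ROBO1, SEMA3D, SEMA5A, NRP2, PLXND1, EPHB1 and EPHB3, that is, for every gene called here but EPHA3. Leaving it out thus favours larger differences, and the adjusted p-values do not allow for that choice. Leaving out any other sample gave 0 calls.

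**Figure D3:**
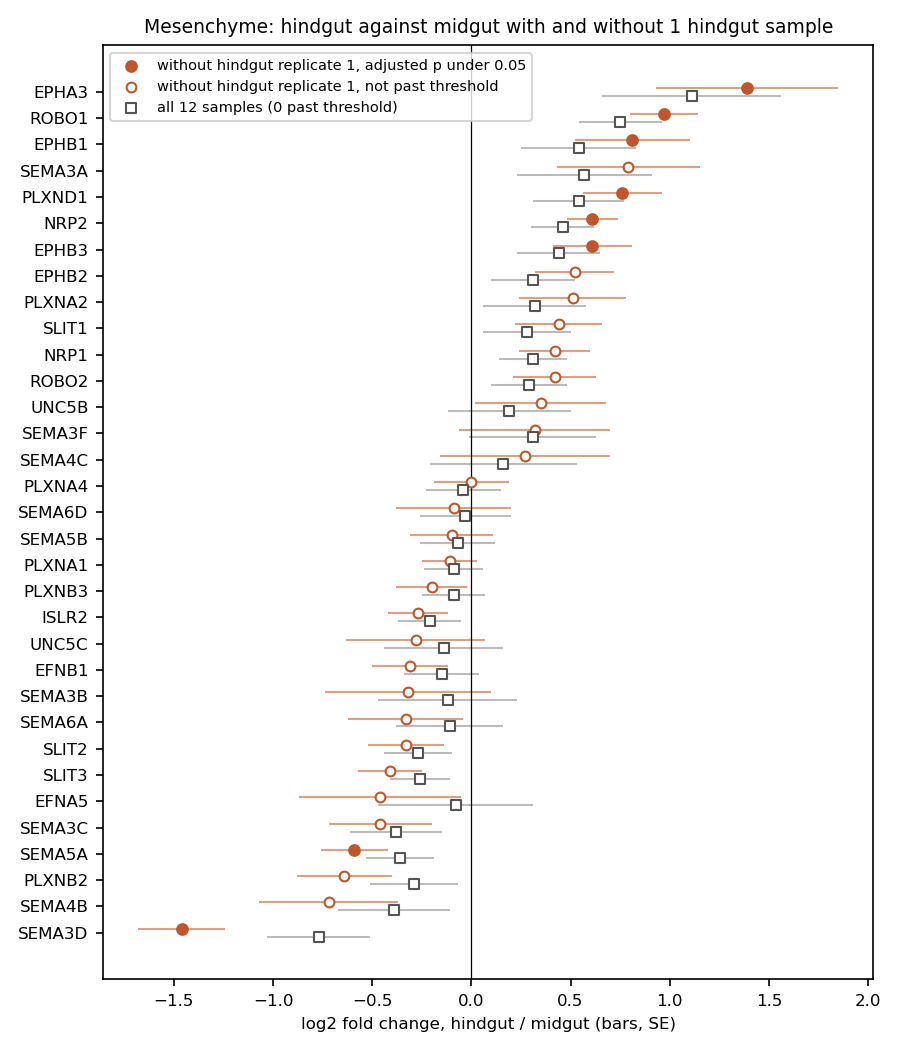
Log2 changes of hindgut over midgut (horizontal axis) in the subepithelial mesenchyme for the 33 tested guidance genes, with standard errors as bars. Circles are fits without hindgut replicate 1, filled where the adjusted p passed, and squares are fits with all 12 samples, none of which passed. Without that sample the 8 filled genes run from -1.46 for SEMA3D to 1.39 for EPHA3, a value that the low-count filter favours.

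The 2 genes that fell in the Hoxd13 midgut did not pass in hindgut against midgut, although 3 of 4 hindgut samples were below all midgut samples in each. SLIT3 had 219, 155, 167 and 175 CPM in hindgut, so that replicate 1 lay within the midgut range of 215 to 229 CPM and the other 3 lay below it. Its log2 change was -0.26 ± 0.15 against midgut (adjusted p = 0.54), and -0.41 without hindgut replicate 1 (adjusted p = 0.061). ISLR2 had 271, 255, 216 and 257 CPM in hindgut, and its log2 change against midgut was -0.21 ± 0.16 (adjusted p = 0.64). Neither result shows that hindgut and midgut are alike in these genes.

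Of the remaining ligands, SEMA5A had 196, 128, 138 and 131 CPM in hindgut, against 173, 219, 180.5 and 218 CPM in midgut (log2 change -0.36 ± 0.17, adjusted p = 0.35). SLIT2 was at -0.27 and SLIT1 at 0.28, the secreted semaphorins SEMA3A at 0.57, SEMA3F at 0.31, SEMA3B at -0.12 and SEMA3C at -0.38. The membrane-bound semaphorins SEMA4C, SEMA6D, SEMA5B, SEMA6A and SEMA4B were at 0.16, -0.03, -0.07, -0.11 and -0.39, and the ephrins EFNA5 and EFNB1 at -0.08 and -0.15. None of these passed. SEMA6D changed sign with total counts as the scale (0.01).

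Of the remaining receptors, ROBO2 had 87.9, 105, 98.4 and 126 CPM in hindgut and was at 0.29 ± 0.19 against midgut (adjusted p = 0.58). NRP1, the other neuropilin, had 127, 144, 152 and 177 CPM in hindgut, against 130, 120, 118 and 112 CPM in midgut (0.31 ± 0.17, adjusted p = 0.45). PLXNA1, a partner of the neuropilins, had 336, 311, 226 and 390 CPM in hindgut, 319, 341, 348 and 350 CPM in Hoxd13 midgut samples and 366, 308, 302 and 387 CPM in midgut. PLXNB3 had 150, 139, 118 and 122 CPM in hindgut, 144, 149, 142 and 149 CPM in Hoxd13 midgut samples and 120, 140, 160 and 155 CPM in midgut. The groups overlapped in both plexins, with log2 changes of -0.09 each in hindgut against midgut. PLXNA2 was at 0.32, PLXNA4 at -0.04, PLXNB2 at -0.29, UNC5B at 0.19 and UNC5C at -0.14.

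On the scale of total counts, hindgut mesenchyme had more marker RNA of smooth muscle than midgut mesenchyme. The 11 smooth muscle markers summed to 6573 to 12760 CPM of the total count in hindgut, against 3977 to 6267 CPM in midgut. Of the 11, 4 were called higher. The lowest hindgut value was that of replicate 1, whose library was 1092578 after TMM scaling against a total of 903222. The sum of that sample is therefore lower on the TMM scale used for the genes, where the groups overlapped. It had 5937 of these counts in that library, and midgut replicate 1 had 2680 in a scaled library of 415827. The 3 erythroid markers summed to 424 to 755 CPM in hindgut and 176 to 333 CPM in midgut, with 2 of 2 tested called higher, whereas the 10 endothelial markers summed to 164 to 275 CPM in hindgut and 156 to 180 CPM in midgut, with 0 of 2 tested called. The 14 enteric neuron and glia markers summed to 418 to 683 CPM in hindgut and 548 to 606 CPM in midgut, with 0 of 7 tested called. Epithelial markers had 1 of 9 tested called lower, and fibroblast markers, at 16370 to 19170 CPM in hindgut and 14030 to 16250 CPM in midgut, had 1 of 9 called higher. The fibroblast sums came mostly from the same 3 collagens as above, and on the TMM scale they overlapped too. Hindgut replicate 1 had 15184 fibroblast marker counts in its scaled library, and midgut replicate 3 had 4260 in 288158. The part of these cell types in the values of ROBO1, NRP2, PLXND1, EPHA3 and SEMA3D was not tested.

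Hindgut and the Hoxd13 midgut both carried W-linked counts in every sample. These were at 37.6 CPM of the total count in hindgut replicate 1, 104 to 156 CPM in the other hindgut samples and 122 to 162 CPM in the Hoxd13 midgut. A match in sex is therefore not shown. These groups differed in 3 guidance genes. SLIT3, ROBO2 and ISLR2 were higher in hindgut, and none was lower. The background was 94 of 4176 genes called higher (2.25%), 1.53% lower and 158 in either direction (3.78%). The 33 genes had a median log2 change of 0.29, with 23 positive and 10 negative, beside 0.01 over all genes. The comparison shares the Hoxd13 samples with that against midgut, so its SLIT3 and ISLR2 values are not separate evidence.

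ROBO2 had 87.9, 105, 98.4 and 126 CPM in hindgut, against 54.2, 61.7, 72.6 and 51.6 CPM in the Hoxd13 midgut. All 4 hindgut samples were above all 4 Hoxd13 samples. The mean was 105 ± 16.2 CPM in hindgut and 60.01 ± 9.40 CPM in the Hoxd13 midgut (SD, n = 4 each), and ROBO2 rose by 0.79 ± 0.21 on the log2 scale (adjusted p = 0.034). The call rested on 19 to 96 counts per sample in hindgut and 17 to 20 in the Hoxd13 midgut. It was lost with DESeq2 (adjusted p = 0.071) and in 7 of the 12 fits that left out a sample, with log2 changes of 0.66 to 0.94 over those 12.

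SLIT3, with means of 179 ± 27.7 CPM in hindgut and 115 ± 7.16 CPM in the Hoxd13 midgut (SD, n = 4 each), was also without overlap and rose by 0.68 ± 0.16 (adjusted p = 0.020). Leaving out Hoxd13 replicate 2, 3 or 4 ended that call (adjusted p up to 0.076), while leaving out hindgut replicate 1 gave 0.55 and kept it. ISLR2 averaged 250 ± 23.4 CPM in hindgut and 165 ± 44.1 CPM in the Hoxd13 midgut (SD, n = 4 each) and rose by 0.62 ± 0.17 (adjusted p = 0.040). Here Hoxd13 replicate 3, at 229 CPM, lay within the hindgut range, and the call held in 6 of the 12 fits that left out a sample.

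EFNB1 was the third gene whose hindgut and Hoxd13 samples did not overlap, beside a background of 10.1% of all genes (4.65% higher and 5.44% lower), and it was lower in every hindgut sample: 194, 194, 103 and 148 CPM in hindgut, against 271, 204, 283 and 225 CPM in the Hoxd13 midgut. It did not pass (log2 change -0.58 ± 0.19, adjusted p = 0.085). At an unadjusted p under 0.05, 6 of the 33 were higher and 1 lower, against 9.7% and 7.9% of all genes (17.6% in all). NRP2 was at 0.46 ± 0.16 (adjusted p = 0.12) and EPHB3 at 0.58 ± 0.22 (adjusted p = 0.14).

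The other values ran from 0.67 to -0.36. The ligands EFNA5 (0.67), SEMA6A (0.64), SLIT1 (0.44), SEMA5B (0.36), SEMA4C (0.35), SEMA6D (0.32), SLIT2 (0.20), SEMA5A (0.13) and SEMA3B (0.08) were on the positive side. EFNA5 and SEMA6A lie on the Z chromosome, and the part of its dose was not tested. The ligands SEMA3F (-0.02), SEMA3A (-0.10), SEMA4B (-0.27), SEMA3C (-0.31) and SEMA3D (-0.36) were on the negative side. Of the receptors, PLXNA2 (0.54), EPHB2 (0.43), PLXNA4 (0.38), ROBO1 (0.36), UNC5B (0.35), PLXND1 (0.29), EPHB1 (0.18), NRP1 (0.15) and UNC5C (0.11) were positive. PLXNA1 (-0.08), PLXNB3 (-0.12), EPHA3 (-0.14) and PLXNB2 (-0.36) were negative. With total counts as the scale, SEMA3F, SEMA3A, PLXNA1, PLXNB3 and EPHA3 had positive values of 0.10 to 0.23.

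Without hindgut replicate 1, 10 of the 33 guidance genes passed in hindgut against the Hoxd13 midgut, 7 higher and 3 lower. The background was then 329 of 4214 genes higher (7.81%) and 300 lower (7.12%), 14.9% in all. The higher genes were ROBO2 (log2 change 0.94), EPHB3 (0.77), EPHB2 (0.66), NRP2 (0.62), ROBO1 (0.60), ISLR2 (0.59) and SLIT3 (0.55). The lower ones were SEMA3D (-1.04), EFNB1 (-0.73) and PLXNB2 (-0.70). Epithelial markers, at 860 to 3334 CPM of the total count in hindgut and 2182 to 2519 CPM in the Hoxd13 midgut, had 2 of 9 tested called lower with all samples. Smooth muscle markers had 3 of 11 called higher, fibroblast markers 2 of 9 and erythroid markers 2 of 2, while 0 of 7 enteric neuron and glia and 0 of 2 endothelial markers were called. Their part in the guidance gene values was not tested.

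The layers were compared within samples, with the sample as a block, over 614 genes of which 11 were guidance genes: SLIT3, ROBO1, ROBO2, ISLR2, SEMA3D, SEMA5A, NRP2, PLXNA1, PLXNA4, PLXND1 and EFNB1. In the circumferential muscle, ISLR2 and NRP2 were called higher than in the mesenchyme and SEMA5A lower. In the longitudinal muscle, ISLR2 and ROBO2 were called higher. All but the SEMA5A call were lost without the low-count filter, where the median of all genes was -0.61 in the circumferential and -1.01 in the longitudinal muscle. Such a shift favours lower calls, so nothing is read from the SEMA5A call being kept. The filter of the main layer fit asks for about 224 CPM of the total count in at least 4 columns. SEMA5A and ROBO1 reached that level in 0 circumferential columns, and PLXNA4 and SEMA3D in 0 mesenchyme columns. ROBO2 and PLXND1 reached it only in longitudinal columns. The filter thus favours lower SEMA5A and ROBO1 in the circumferential muscle and higher ROBO2 and PLXND1 in the longitudinal muscle. It also favours PLXNA4 and SEMA3D values above those of the mesenchyme. All of these are given as values only. Many genes differ between these layers, and the background was 246 of 614 genes (40.1%, with 21% higher and 19.1% lower) for the circumferential muscle and 128 (20.8%, with 9.93% higher and 10.9% lower) for the longitudinal muscle. The shares of guidance genes called, 3 of 11 (27.3%) and 2 of 11 (18.2%), were not above it in both directions together. The 2 longitudinal calls were both higher, however, beside 9.93% of all genes. Each count also includes a gene that the filter favours, so nothing is read from these shares. The 11 smooth muscle markers summed to 8533 to 20940 CPM of the total count in circumferential samples, 5196 to 9710 CPM in longitudinal samples and 3977 to 12760 CPM in mesenchyme samples, so that the ranges of all layers overlapped.

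SEMA5A had 9, 0, 0 and 4 counts in the circumferential muscle of hindgut, 3, 4, 3 and 0 in that of the Hoxd13 midgut and 3, 4, 3 and 2 in that of midgut. On the scale of all 36 columns it averaged 79.1 ± 54.4 CPM in the circumferential muscle and 197 ± 49.4 CPM in the mesenchyme (SD, n = 12). It was below the mesenchyme of the same sample in 12 of 12 samples, with a fitted log2 change of -1.31. It had too few counts to be tested in 5 of the 12 fits that left out a sample, hindgut replicate 1 among them. In the longitudinal muscle SEMA5A was at -0.39.

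ISLR2 averaged 404 ± 209 CPM in the circumferential muscle, 468 ± 243 CPM in the longitudinal muscle and 286 ± 81.6 CPM in the mesenchyme (SD, n = 12). It was above the mesenchyme of the same sample in 10 of 12 circumferential samples (log2 change 0.51 ± 0.16, adjusted p = 0.0052) and in 9 of 12 longitudinal samples (0.60 ± 0.21, adjusted p = 0.034). The circumferential call was lost without hindgut replicate 4 (0.33, adjusted p = 0.07), and the longitudinal call in 7 of the 12 fits that left out a sample. Without hindgut replicate 1, ISLR2 was at 0.55 in the circumferential (adjusted p = 0.0059) and 0.49 in the longitudinal muscle (adjusted p = 0.16). Without the low-count filter it was at 0.01 in the circumferential (adjusted p = 1) and, with the opposite sign, -0.28 in the longitudinal muscle (adjusted p = 0.5), and total counts as the scale also ended the longitudinal call (0.55, adjusted p = 0.063). NRP2 averaged 526 ± 146 CPM in the circumferential muscle and 396 ± 78.1 CPM in the mesenchyme (SD, n = 12), higher in 10 of 12 samples (0.41 ± 0.13, adjusted p = 0.0091). That call was lost without hindgut replicate 1 (0.34, adjusted p = 0.061) and with total counts as the scale (0.28, adjusted p = 0.1), and without the low-count filter the sign turned (-0.11, adjusted p = 0.89).

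ROBO2 had 6, 2, 4 and 4 counts in the longitudinal muscle of hindgut, 9, 4, 3 and 6 in that of the Hoxd13 midgut and 2, 0, 0 and 4 in that of midgut. It averaged 233 ± 169 CPM there and 99.8 ± 26.2 CPM in the mesenchyme (SD, n = 12) and was above the mesenchyme in 10 of 12 samples, with a fitted log2 change of 0.99. Without the low-count filter that change was 0.12. SLIT3 did not pass in either muscle layer, at 0.04 ± 0.19 in the circumferential (adjusted p = 0.89) and -0.28 ± 0.27 in the longitudinal muscle (adjusted p = 0.52). The remaining genes, none past the threshold, ran from -0.38 (EFNB1) to 0.25 (PLXNA4) in the circumferential muscle, with ROBO1 at -0.32, SEMA3D at -0.28, PLXNA1 at -0.14 and PLXND1 at -0.02. In the longitudinal muscle they ran from -0.32 (EFNB1) to 0.41 (PLXND1). The values of PLXND1, PLXNA4, ROBO1 and SEMA3D are subject to the filter as above.

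**Figure D4:**
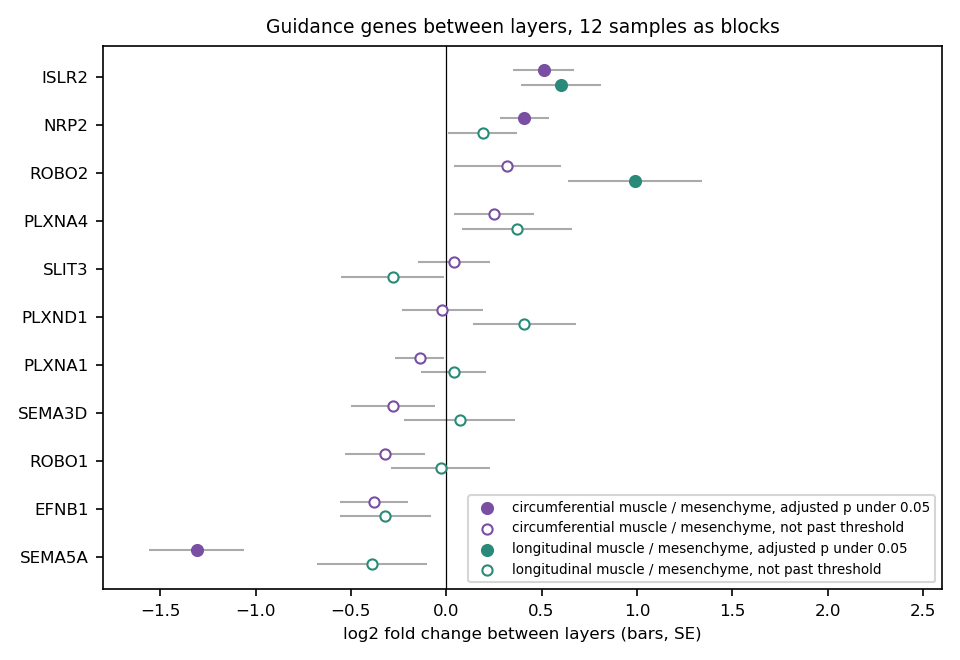
Log2 changes (horizontal axis) of the 11 guidance genes with enough counts, for circumferential muscle over mesenchyme (purple) and longitudinal muscle over mesenchyme (green), with the 12 samples as blocks and standard errors as bars. Filled symbols passed the adjusted p threshold. ISLR2 stands at 0.51 and 0.60, and the values of SEMA5A (-1.31, circumferential) and ROBO2 (0.99, longitudinal) are favoured by the low-count filter. That filter also bears on the values of ROBO1, PLXND1, PLXNA4 and SEMA3D.

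Whether the Hoxd13 effect on these genes differed between the mesenchyme and the muscle could be tested only coarsely. SLIT3 had 5, 7, 4 and 6 counts in the circumferential muscle of the Hoxd13 midgut, against 6, 11, 5 and 7 in that of midgut. ISLR2 had 11, 5, 9 and 12 counts in the circumferential muscle of the Hoxd13 midgut, against 11, 12, 19 and 10 in that of midgut, and 2, 3, 3 and 6 in its longitudinal muscle, against 5, 9, 9 and 10. The SLIT3 groups overlapped in CPM. ISLR2 was at 186 to 357 CPM in the Hoxd13 midgut and 371 to 630 CPM in midgut for the circumferential muscle. It was at 127 to 405 CPM and 458 to 692 CPM for the longitudinal muscle of the same groups. The share of all genes with such gaps in the muscle was not counted, so nothing is read from them.

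The effect of Hoxd13 in the mesenchyme minus its mean in both muscle layers was -0.06 ± 0.47 for SLIT3 (adjusted p = 0.99) and 0.32 ± 0.36 for ISLR2 (adjusted p = 0.92). Such standard errors leave room for differences of the size of the mesenchyme effect itself. For ROBO2 it was -1.0 ± 0.57 (adjusted p = 0.69). By edgeR 0 of 614 genes passed this test (0%), 49 had an unadjusted p under 0.05 (7.98%), and 0 of the 11 guidance genes reached either. For hindgut against midgut 3 of 614 genes passed (0.489%) and 3.09% had an unadjusted p under 0.05, and 0 of the 11 guidance genes reached either. No other tool was run on the layers.

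**Figure D5:**
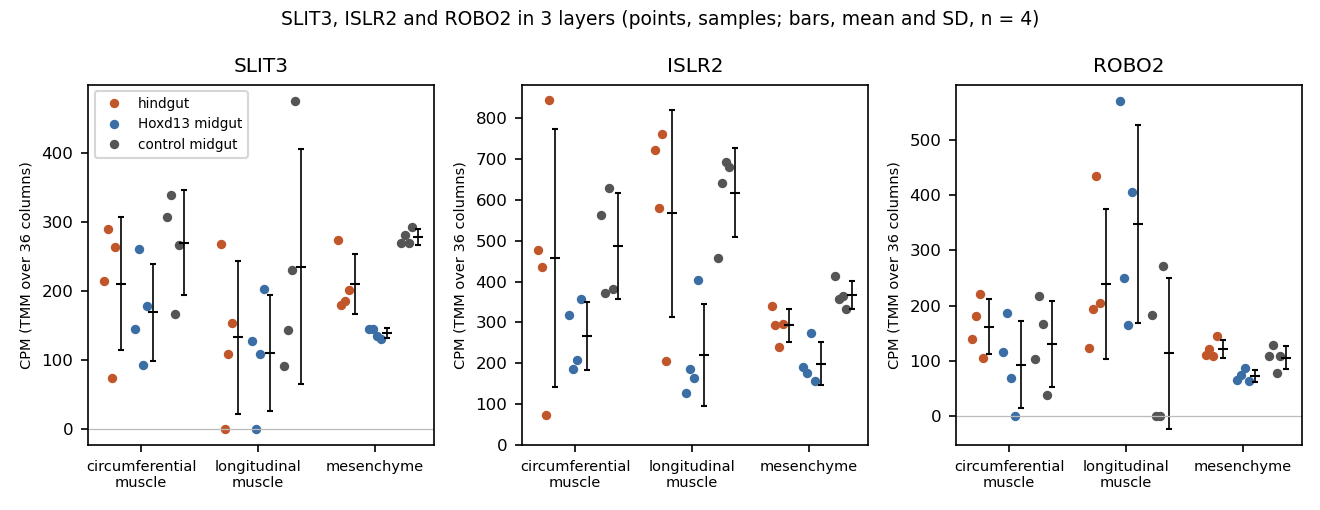
CPM, scaled over all 36 columns (vertical axes), of SLIT3, ISLR2 and ROBO2 in the circumferential muscle, the longitudinal muscle and the mesenchyme. Points are samples of hindgut, Hoxd13 midgut and control midgut, and bars are the mean with its SD (n = 4). Mesenchyme values spread least, and single muscle values of 0 occur for SLIT3 and ROBO2.

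Other genes of the guidance pathways, such as co-receptors and the enzymes that pass the signal to the cytoskeleton, were taken from a list of 73, of which 65 were in the table and 41 were tested. In the Hoxd13 midgut against midgut, 1 was called higher and 1 lower, with a median log2 change of 0.23 beside 0.01 over all genes, where 1.32% of all genes were called higher and 1.34% lower. In hindgut against midgut 0 of 41 passed by edgeR, 10 had an unadjusted p under 0.05 (9 higher, 1 lower; 13.9% of all genes), and DESeq2 called 1 of 15 that it adjusted, PTPRF lower. Without hindgut replicate 1, 11 of 44 were called there, 10 higher and 1 lower, beside 19.6% of all genes (10.1% higher and 9.52% lower). In hindgut against the Hoxd13 midgut, 1 was called higher and 1 lower, beside 2.25% and 1.53% of all genes.

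RHOA, a small GTPase that acts below plexins and Eph receptors, had 778, 669, 733 and 779 CPM in the Hoxd13 midgut, against 524, 502, 524 and 401 CPM in midgut. It rose by 0.60 ± 0.13 (adjusted p = 0.012), without overlap, and lost the call with total counts as the scale (0.40, adjusted p = 0.19) and in 3 of the 12 fits that left out a sample (adjusted p up to 0.079). Hindgut samples, at 461, 549, 546 and 563 CPM, were also all below the Hoxd13 midgut (log2 change -0.49 ± 0.13, adjusted p = 0.034). That call held in 4 of the 12 fits that left out a sample (adjusted p up to 0.1) and was lost with total counts as the scale (-0.31, adjusted p = 0.26).

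TRIO, a guanine nucleotide exchange factor, had 147, 94.1, 76.2 and 133 CPM in the Hoxd13 midgut, against 207, 188, 177 and 180 CPM in midgut. It fell by 0.73 ± 0.20 (adjusted p = 0.049), and the call held in 5 of the 12 fits that left out a sample. DESeq2 called only RHOA among the 33 pathway genes it adjusted in this comparison, and so did not call TRIO. NEO1, the netrin and RGM receptor neogenin, had 407, 477, 551 and 492 CPM in hindgut, against 338, 302, 330 and 334 CPM in the Hoxd13 midgut. All hindgut samples were above all Hoxd13 samples, and NEO1 rose by 0.55 ± 0.14 (adjusted p = 0.034), a call that held in 5 of the 12 fits that left out a sample.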

How the data were processed

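Light-seq counts of 12 chick samples in 3 layers (36 columns) were analysed. The deposited values are counts, whole numbers for each gene in each layer of a sample, that the authors had not normalised as far as their totals show. The submitters' processing notes name featureCounts, STAR, UMI-tools, DESeq2 and MultiQC, without roles or versions, and the GRCg6a build. Sources used here do not say whether counts are reads or unique molecules or whether strand was used, so antisense or overlapping genes may share counts, and intervals and floors cover counting error only.

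Samples were grouped by their titles. Genes of the mesenchyme were kept with edgeR's filterByExpr (minimum count 10, minimum total 15), scaled with TMM and tested with edgeR 4.0.16 (R 4.3.3; glmQLFit and glmQLFTest, two-sided) in a fit of all 12 samples, with Benjamini-Hochberg adjustment over all genes tested and a threshold of 0.05. Layers were tested across the 36 columns, each sample being a block. The standard error is the log2 change divided by the square root of F. A floor is 3 counts, the 95% limit of a count of 0. The procedure was tested on simulated counts. Alternatives were RLE factors, total counts, DESeq2 1.42.0, no filter, only the groups compared, the replicate number as a block and leaving out each sample. No pair of replicates agreed within sampling noise (chi-square test, largest p = 0.0063), so none were merged. RefSeq annotation (GRCg7b) matched 52 of 53 symbols, all but SEMA4C, and served only to name Z- and W-linked genes.

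Values in every sample are given for genes with an adjusted p under 0.05 in the mesenchyme and for the 10 with the highest mean CPM there. Others, such as SLIT2, SEMA3D and EPHA3, were added after their values were seen. The members and lists were chosen with earlier results of these data known.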

Additional observations from a re-analysis of the deposited data

Results flagged for a closer look

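Among 33 groups of 4 mesenchyme values (11 guidance genes in 3 groups), 2 held a sample far from its 3 companions. ROBO1 was at 127.6 CPM in Hoxd13 midgut replicate 1, and the other 3 Hoxd13 samples were at 189 to 201 CPM. SEMA5A was at 195.9 CPM in hindgut replicate 1, and the other 3 hindgut samples were at 128 to 138 CPM. The rule that marked them is Dixon's at the 95% level, which marks about 5% of groups by chance.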

How the results depend on the processing

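In the mesenchyme, 2 guidance genes were called in the Hoxd13 midgut against midgut. The count was 3 with only the groups compared, where SEMA5A was added, and 1 to 3 when a sample was left out. Over all genes it was 37 to 317 when a sample was left out. DESeq2 called 71 of all genes, the fit without a low-count filter 172, and that with only the compared groups 365. With total counts the split of all genes called was 22 higher and 70 lower, against 55 and 56 with TMM, as the median of all genes moved to -0.20. For hindgut against midgut, 2 guidance genes were called by DESeq2, without the filter and with the replicate number as a block, and 0 to 8 when a sample was left out. All genes called there were 120 with DESeq2, 231 without the filter, 2 with only the compared groups and 14 to 825 when a sample was left out. For hindgut against the Hoxd13 midgut, 5 guidance genes were called with total counts (NRP2 and EPHB3 were added), 1 with only the compared groups and 0 to 10 when a sample was left out. All genes called there were 71 with only the compared groups and 58 to 629 when a sample was left out, and with total counts they were 212 higher and 14 lower, against 94 and 64, with the median of all genes at 0.25. Total counts turned the sign of 4, 1 and 5 of the 33 guidance genes in the 3 comparisons, and none of the calls named in the report.

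In the layers, leaving out the low-count filter moved the median of all genes to -0.61 in the circumferential and -1.01 in the longitudinal muscle. It gave 13 and 14 guidance genes and 1654 and 2630 of all genes called. In that setting NRP2 was at -0.11 in the circumferential muscle, and ISLR2 was at -0.28, NRP2 at -0.72 and PLXNA1 at -0.83 in the longitudinal muscle, each with the opposite sign. The cause was not tested. With a sample left out, 1 to 4 guidance genes and 193 to 272 genes were called in the circumferential muscle, and 0 to 2 and 73 to 129 in the longitudinal muscle, where total counts gave 1 guidance gene. The split with total counts was 88 higher and 167 lower in the circumferential muscle (129 and 117 with TMM) and 50 and 79 in the longitudinal muscle (61 and 67). The test of whether the Hoxd13 effect differed between layers called 0 to 2 of all genes when a sample was left out. For hindgut it called 1 with RLE factors, with total counts or without the filter, and 1 to 4 when a sample was left out.

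Samples of different groups share only a number. Of 12 pairs with the same replicate number, 0 correlated above 0.1 (-0.258 to 0.083), and 3 of 12 samples correlated best with their own number. With the replicate block, 2, 2 and 3 guidance genes and 79, 143 and 146 of all genes were called in the Hoxd13 midgut against midgut, hindgut against midgut and hindgut against the Hoxd13 midgut. For single genes, 2367 of 2495 alternative values kept their side of the threshold and their sign, or changed sign by less than an SE. A call was lost in 68 and gained in 42, 14 uncalled values changed sign by more than an SE, and 4 were those with the opposite sign above. Depth limits the muscle layers most: 3 counts there are 28.0 to 326 CPM.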
